A study of Homo sapiens with 6 samples.

Results

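The fatty acid binding and uptake proteins are 10 genes of families known for carrying long-chain fatty acids across the plasma membrane and through the cytosol. They are the carriers FABP3, FABP4, FABP5 and FABP6, the scavenger receptor CD36, and the SLC27 family members SLC27A1 to SLC27A5. Not every one has that role, as FABP6 and SLC27A5 are known for bile acids. The members were chosen by symbol, and all 10 were found among the 63241 genes of the deposited table. RNA had been sequenced from cultures of MDA-MB-231, a line of human breast cancer cells without hormone receptors or HER2 amplification. The 3 ArA libraries were made from cells that received 40 µM of ArA, which the study's title spells out as arachidonic acid, and cultured for 24 h, and the 3 control libraries came from non-treated cells of the same line. Both groups grew in medium with 10% fetal bovine serum, which itself carries fatty acids, and the labels name no vehicle and do not say whether replicates were separate cultures, so p-values measure only the spread between libraries.

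Arachidonic acid is hardly soluble in water. CD36 and the SLC27 proteins, also called fatty acid transport proteins, aid its entry at the membrane, and several SLC27 proteins are also acyl-CoA synthetases that trap the acid inside the cell as its CoA ester. Inside, FABPs are small barrel-shaped proteins that hold a fatty acid and deliver it to membranes, lipid droplets, mitochondria or nuclear receptors of the PPAR family, and FABP4 is itself a textbook target gene of PPARG in adipocytes.

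Values are TPM, a gene's share of all transcripts of the library after division by transcript length, so that levels can be compared between genes. The table holds no read counts and the depth of each library is unknown. Genes whose mean over the 6 libraries reached 1 TPM were tested with limma on log2(TPM + 1), which understates the change of low genes, and 12999 genes met that filter, 6 of the 10 members among them. Markers of the line were present, with VIM at 1480 ± 42.5 TPM in ArA and 1390 ± 52.9 TPM in control libraries (SD, n = 3 each), while PGR was listed at 0 and ESR1 did not exceed 0.03 TPM. ERBB2, which triple-negative lines do not overexpress, was still read at 39.1 ± 2.15 TPM in ArA and 35.7 ± 5.37 TPM in control libraries (SD, n = 3 each). PGR, ESR1 and ERBB2 were in a list of genes taken to be absent, together with CDH1 and EPCAM. CDH1 did not exceed 0.17 TPM, while EPCAM had 5.18 ± 1.08 TPM in ArA and 5.49 ± 2.03 TPM in control libraries. Libraries differed in base composition: per 10 points of gene GC percent, levels deviated by 0.139 on the log2 scale in ArA replicate 1 and by 0.180 in control replicate 2, against -0.130 to -0.0286 in the other 4 libraries. Mitochondrially encoded transcripts took 26.9 to 32.1% of TPM in ArA libraries and 31.6 to 32.9% in control libraries.

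**Figure D1:**
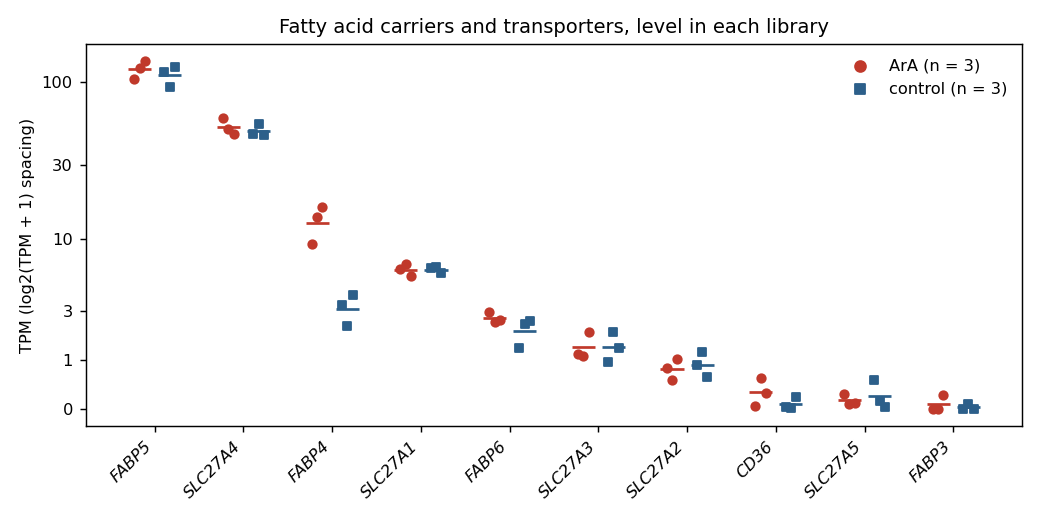
Level of each member in each library, with genes on the x axis ordered by mean level and TPM on the y axis spaced as log2(TPM + 1). Circles are ArA libraries, squares control libraries, and bars the mean of the log2 values (n = 3 each). Only for FABP4 do the 2 groups not overlap, at 9.17 to 16.30 TPM in ArA and 2.22 to 3.96 TPM in control libraries. Over all tested genes, 8.05% do not overlap in either direction.

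The members spanned the whole range from abundant to barely listed. FABP5, the carrier first described in skin, was the most abundant, ranking 1017th by mean level among the 28138 genes above 0 in any library. SLC27A4, a transporter with acyl-CoA synthetase activity, came next at rank 2223. Their ranges over the 6 libraries did not overlap. FABP4, the adipocyte and macrophage carrier, and SLC27A1, the transporter known from muscle and fat, followed in an order that differed between the groups. FABP4 lay above SLC27A1 in all 3 ArA libraries and below it in all 3 control libraries. FABP6, the bile acid carrier of the ileum, and SLC27A3, an acyl-CoA synthetase of the same family, were read at a few TPM at most, and their ranges overlapped in control libraries. The remaining 4 members did not meet the filter and stayed between 0 and 1.22 TPM in every library, with SLC27A2 above CD36, SLC27A5 and FABP3 on average and the ranges of the lowest 3 overlapping.

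Of the 10 members, 6 of them tested, FABP4 was the only one whose groups did not overlap. Over all tested genes, 8.05% did not overlap in either direction and 6.84% were higher in ArA without overlap. FABP4 transcripts stood at 9.17, 13.97 and 16.30 TPM in ArA replicates 1, 2 and 3, against 3.35, 2.22 and 3.96 TPM in control replicates 1, 2 and 3. Every ArA library was above every control library, and the lowest value of each group was in the library whose levels increased with GC content. The means were 13.1 ± 3.64 TPM in ArA and 3.18 ± 0.883 TPM in control libraries (SD, n = 3 each), a ratio of 4.14. In RNA from bulk cells, more cells with FABP4 transcripts and more of them per cell cannot be told apart. The difference in limma was 1.75 on the log2 scale (SE 0.25, 95% interval 1.17 to 2.33), which was the 9th highest of 12999 tested genes and the 6th by p. After Benjamini-Hochberg adjustment over all of them it did not pass (limma adjusted p = 0.335). Over all genes, 0.0231% were called in either direction, and 0 of the 6 tested members were called.

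Whether FABP4 was called differed with the scaling of the libraries and with the treatment of their GC trends. The longest annotated FABP4 transcript has 37.6% GC, the lowest of the 6 tested members. With each library's trend on GC content removed, FABP4 differed by 1.73 on the log2 scale (SE 0.11, 95% interval 1.48 to 1.98; limma adjusted p = 0.00207), the 3rd smallest p of 12637 genes, of which 0.0396% were called. FABP4 also passed under quantile normalization (limma adjusted p = 0.0333), which has no GC step, but not under median of ratios (limma adjusted p = 0.12). It passed too without ArA replicate 1 and control replicate 2 (log2 fold change 1.79, limma adjusted p = 0.0344). That omission was added after seeing the data. It leaves out the lowest FABP4 value of each group, so it is no independent check. Over all 19 alternatives the FABP4 log2 fold change lay between 1.14 and 2.01 and its limma adjusted p between 0.00207 and 1.

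**Figure D2:**
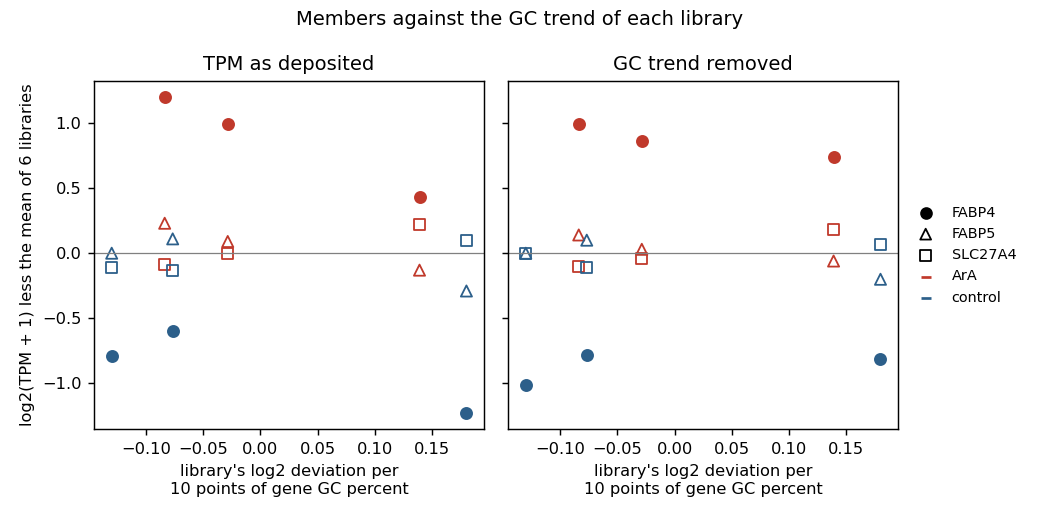
Centred log2(TPM + 1) of FABP4, FABP5 and SLC27A4 (y axis, each gene's mean over 6 libraries subtracted) against each library's log2 deviation per 10 points of gene GC percent (x axis), before and after removal of the GC trend. Red points are ArA and blue points control libraries. FABP4 values spread from 0.43 to 1.20 in ArA and from -1.23 to -0.60 in control libraries before removal, and from 0.74 to 0.99 and from -1.01 to -0.78 after it.

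FABP4 (ENSG00000170323) occupies bases 81478419 to 81483263 of chromosome 8, reverse strand, in GENCODE v29 on GRCh38, 193642 bases from FABP5 (ENSG00000164687), which is on the forward strand from 81280363 to 81284777. Between them and beside them lie PMP2, FABP9 and FABP12, which code for carriers of the same family, and all 3 were listed at 0 in every library. The inositol phosphatase gene IMPA1, within 300000 bases, had 14.23, 21.96 and 24.01 TPM in ArA replicates 1, 2 and 3, against 21.76, 12.30 and 22.76 TPM in control replicates 1, 2 and 3. ZFAND1, a zinc finger gene of the same window, had 16.38, 23.37 and 19.99 TPM in ArA and 21.32, 14.05 and 22.15 TPM in control libraries. CHMP4C, also in this window, had 3.99, 5.33 and 6.17 TPM in ArA and 3.86, 3.67 and 5.07 TPM in control libraries. The groups overlapped for each of these genes. Like FABP4, each had its lowest ArA value in replicate 1 and its lowest control value in replicate 2, as did 44.6% of all tested genes. The annotated antisense transcript over FABP4 was listed at 0 throughout.

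FABP5 stayed close between the groups. Its levels were 103.86, 121.08 and 133.40 TPM in ArA replicates 1, 2 and 3, against 114.09, 93.04 and 122.75 TPM in control replicates 1, 2 and 3. The groups overlapped over most of their range. The log2 fold change was 0.12 (SE 0.14, limma adjusted p = 0.999), and its 95% interval of -0.20 to 0.44 bounds the fold between 0.869 and 1.36. Relative to FABP5, FABP4 was therefore higher in every ArA library than in any control library. Per 100 TPM of FABP5 there were 8.83, 11.5 and 12.2 TPM of FABP4 in ArA replicates 1, 2 and 3, against 2.94, 2.39 and 3.23 TPM in control replicates 1, 2 and 3. The log2 ratio of FABP4 to FABP5, with 1 TPM added to each, differed by 1.63 between the groups. An exact 2-sided permutation test gave p = 0.1, the smallest that 3 against 3 libraries allow, and 0.133 after Benjamini-Hochberg adjustment over 4 such tests.

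FABP5 shares sequence with a pseudogene that had TPM values of its own. FABP5P7 (ENSG00000234964), a processed pseudogene at bases 59781318 to 59781722 of chromosome 11, reverse strand, is 405 bases long in GENCODE v29 and aligned over its whole length, without a mismatch, to a FABP5 transcript. Reads within that stretch cannot be told apart, and both rows are uncertain. FABP5P7 was listed at 37.2, 44.9 and 41.1 TPM in ArA replicates 1, 2 and 3, against 49.9, 46.4 and 64.0 TPM in control replicates 1, 2 and 3. All ArA values were below all control values, with a log2 fold change of -0.36 (SE 0.14) that did not pass over all genes (limma adjusted p = 0.999), where 1.21% of tested genes were lower in ArA without overlap. Of the sum of both rows, FABP5P7 took 26.4, 27.0 and 23.5% in ArA replicates 1, 2 and 3, against 30.4, 33.3 and 34.3% in control replicates 1, 2 and 3 (exact 2-sided permutation p = 0.1, 0.133 after adjustment over the same 4 tests). The sum itself was 160 ± 17.4 TPM in ArA and 163 ± 23.7 TPM in control libraries (SD, n = 3 each; exact 2-sided permutation p = 1). Set against this sum, FABP4 differed by 1.77 on the log2 scale (exact 2-sided permutation p = 0.1, 0.133 after adjustment). The share and both values that use the sum were chosen after the levels had been seen. Of 21 rows of the table that name a FABP pseudogene, some under the same symbol, 17 were listed at 0 in all libraries, and apart from FABP5P7 none exceeded 0.49 TPM.

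**Figure D3:**
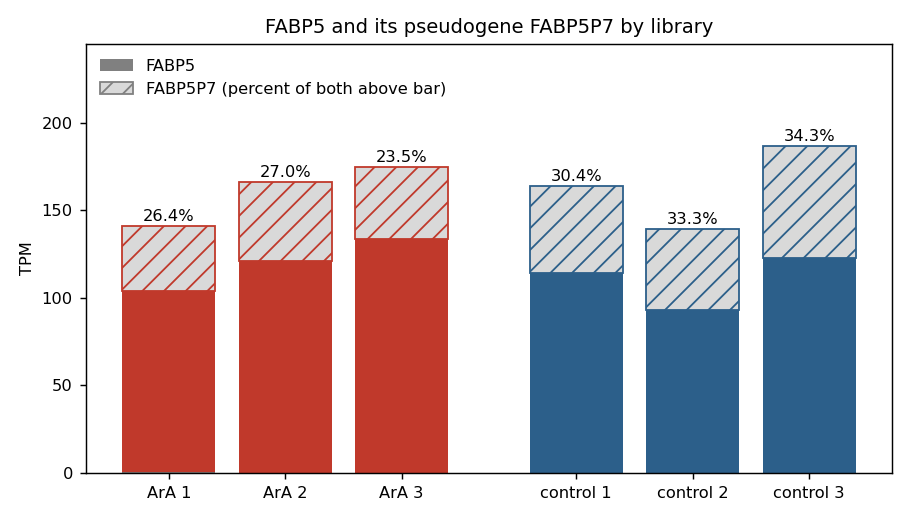
TPM of FABP5 (solid) with that of its pseudogene FABP5P7 stacked on it (hatched) in each library, ArA on the left in red and control on the right in blue. The percentage above each bar is the part of the sum listed under FABP5P7, 23.5 to 27.0% in ArA and 30.4 to 34.3% in control libraries.

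Carrier transcripts as a whole were mostly FABP5 in both groups. Summed over FABP3 to FABP6, they came to 116, 137 and 152 TPM in ArA replicates 1, 2 and 3, against 119, 97.7 and 129 TPM in control replicates 1, 2 and 3, and the groups overlapped. FABP5 took 88.4 ± 1.07% of this sum in ArA and 95.4 ± 0.533% in control libraries (SD, n = 3 each). FABP4 took 9.59 ± 1.48% in ArA and 2.72 ± 0.406% in control libraries. FABP6 took 1.97 ± 0.469% in ArA and 1.81 ± 0.631% in control libraries. The sum and these shares leave out FABP5P7. With it added, the difference between the group means of the sum fell from 20.1 to 7.66 TPM.

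FABP6 was low. It had 2.91, 2.42 and 2.51 TPM in ArA replicates 1, 2 and 3, against 1.35, 2.33 and 2.47 TPM in control replicates 1, 2 and 3. Only control replicate 1 lay clearly below the others, and FABP6 differed by 0.26 on the log2 scale (SE 0.19, limma adjusted p = 0.999), with a 95% interval of -0.19 to 0.72. Of its companions in ileal bile acid transport, the uptake carrier SLC10A2 did not exceed 0.04 TPM, while the export subunit SLC51A had 1.96 ± 0.864 TPM in ArA and 1.96 ± 0.260 TPM in control libraries (SD, n = 3 each). FABP3, the heart and muscle carrier, was listed at 0, 0 and 0.22 TPM in ArA replicates 1, 2 and 3 and at 0, 0.07 and 0 TPM in control replicates 1, 2 and 3. The other 6 genes of the family, FABP1, FABP2, FABP7, PMP2, FABP9 and FABP12, were listed at 0 in all 6 libraries.

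CD36, the membrane receptor that binds fatty acids and oxidised lipoproteins in macrophages, muscle and fat, was barely read in these cells. It was listed at 0.04, 0.54 and 0.25 TPM in ArA replicates 1, 2 and 3, against 0.03, 0.01 and 0.18 TPM in control replicates 1, 2 and 3. The highest 2 values were in ArA libraries, but the groups overlapped, and CD36 was below the level set for testing.

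The transporters were dominated by SLC27A4. It had 59.45, 50.63 and 47.55 TPM in ArA replicates 1, 2 and 3, against 47.09, 54.56 and 46.35 TPM in control replicates 1, 2 and 3. The highest value of each group was in the library whose levels increased with GC content, the reverse of FABP4, and SLC27A4 has 60.9% GC. Its log2 fold change was 0.09 (SE 0.12, limma adjusted p = 0.999), which with a 95% interval of -0.19 to 0.36 bounds the fold between 0.877 and 1.29. SLC27A4 made up 86.0 ± 1.54% of all SLC27A1 to SLC27A5 transcripts in ArA and 85.1 ± 0.621% in control libraries (SD, n = 3 each). Its annotated span shares 618 bases on the same strand with TMSB4XP4, a processed pseudogene read at 0.78 to 2.34 TPM.

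SLC27A1 had 6.14, 6.72 and 5.51 TPM in ArA replicates 1, 2 and 3, against 6.31, 6.36 and 5.75 TPM in control replicates 1, 2 and 3. ArA values lay on both sides of the control values, and the difference in log2(TPM + 1) was -0.01 (SE 0.13, 95% interval -0.30 to 0.29, limma adjusted p = 0.999). SLC27A3 had 1.17, 1.12 and 1.97 TPM in ArA replicates 1, 2 and 3, against 0.95, 1.95 and 1.37 TPM in control replicates 1, 2 and 3, and the difference in log2(TPM + 1) was 0.00 (SE 0.23, 95% interval -0.53 to 0.53, limma adjusted p = 0.999). At this level the interval depends on the pseudocount, and with 0.1 TPM added in place of 1 the SE was 0.37. Its annotated span shares 455 bases with INTS3 on the same strand, a gene read at 14.27 to 17.11 TPM, so its low values are uncertain. SLC27A2, a liver and kidney enzyme for very long chains, had 0.77, 0.51 and 1.03 TPM in ArA and 0.86, 1.22 and 0.56 TPM in control replicates 1, 2 and 3. SLC27A5, the bile acid-CoA ligase of liver, had 0.24, 0.07 and 0.09 TPM in ArA and 0.50, 0.12 and 0.02 TPM in control replicates 1, 2 and 3. Both groups overlapped for these 2 low genes, and SLC27A6, the heart transporter, was listed at 0 throughout. SLC27A5 shares 1719 bases with ZNF446 on the opposite strand (2.25 to 3.14 TPM) and SLC27A1 shares 17179 bases with a long non-coding RNA on the opposite strand (0.68 to 1.38 TPM). The use of strand in counting is not given here, so reads of such pairs may not be separated.

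**Figure D4:**
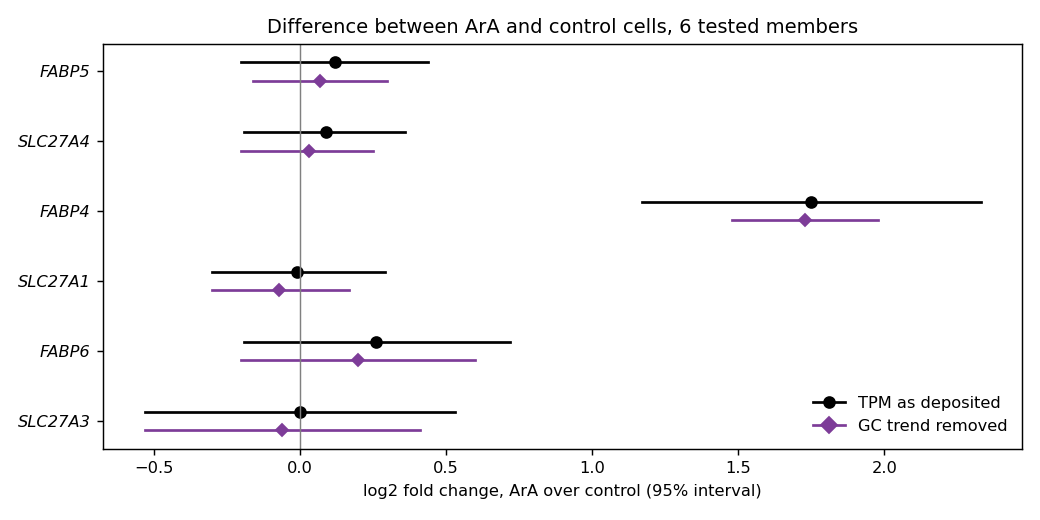
Log2 fold change of ArA over control cells with its 95% interval (x axis) for the 6 members tested (y axis), from TPM as deposited (black circles) and with GC trends removed (purple diamonds). FABP4 lies at 1.75 and 1.73, and the intervals of the other 5 members include 0 in both analyses.

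Among the 5 SLC27 members the order of transcript levels was also the order of CpG content at the gene starts. The RefSeq windows from 250 bases before to 50 bases after the start (build GRCh38.p14) held 38 CG pairs at SLC27A4, 31 at SLC27A1, 26 at SLC27A3, 23 at SLC27A2 and 2 at SLC27A5, against a median of 14 over 35116 such windows. Mean TPM over all 6 libraries fell in the same order, at 50.9, 6.13, 1.42, 0.825 and 0.173. Over 5 genes of 1 family this is a description, and SLC27A6 was not analysed here for CG pairs. The windows of the highest, an intermediate and the lowest of these genes are shown for comparison, with CG pairs in capitals:
SLC27A4 (chr9:128340277-128340576, forward strand): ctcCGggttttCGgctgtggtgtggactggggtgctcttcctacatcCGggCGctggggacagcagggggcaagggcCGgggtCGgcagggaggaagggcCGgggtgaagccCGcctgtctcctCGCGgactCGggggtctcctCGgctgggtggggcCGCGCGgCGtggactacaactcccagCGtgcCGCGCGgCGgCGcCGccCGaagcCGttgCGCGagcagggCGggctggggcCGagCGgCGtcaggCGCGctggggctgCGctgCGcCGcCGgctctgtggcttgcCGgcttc
SLC27A2 (chr15:50181946-50182245, forward strand): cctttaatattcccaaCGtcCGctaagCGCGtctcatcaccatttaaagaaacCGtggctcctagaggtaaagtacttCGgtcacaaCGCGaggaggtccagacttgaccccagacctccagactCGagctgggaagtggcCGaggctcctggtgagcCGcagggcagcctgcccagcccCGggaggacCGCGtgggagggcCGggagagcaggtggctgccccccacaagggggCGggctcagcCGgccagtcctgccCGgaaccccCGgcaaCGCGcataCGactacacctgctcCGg
SLC27A5 (chr19:58511943-58512242, reverse strand): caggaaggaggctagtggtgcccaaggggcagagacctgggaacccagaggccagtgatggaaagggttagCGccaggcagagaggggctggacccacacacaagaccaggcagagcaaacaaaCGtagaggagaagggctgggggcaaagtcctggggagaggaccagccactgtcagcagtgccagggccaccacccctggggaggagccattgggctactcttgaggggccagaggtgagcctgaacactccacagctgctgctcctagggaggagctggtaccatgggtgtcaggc
The SLC27A4 and SLC27A2 windows carry capitals along most of their length, and the SLC27A5 window is almost all lower case. FABP3 does not follow this order, with 17 CG pairs and a mean of 0.0483 TPM, and FABP6 had 3 CG pairs with 2.33 TPM. CD36 has 6 such windows, with 1 to 3 CG pairs each. The nuclear receptor half-site AGGTCA was in no window of these members on either strand, while 13.83% of all windows held it. Its direct repeat with a spacing of 1 base, the form that PPARs bind, was also in none of them and was found in 0.02% of all windows. FABP4 and FABP5 were not among the windows searched.

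Among the tested members, 5 of 6 had a positive log2 fold change, where 68.9% of all tested genes did, and the median of the 6 was 0.10, against 0.06 over all tested genes. The 5 include SLC27A3, at 0.00. One member, FABP4, separated the groups, where 8.05% of tested genes did in either direction. Under each of 3 other scalings 4 of 6 were positive, where 49.3 to 51.8% of all tested genes were, and SLC27A3 was negative.

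Other genes of fatty acid uptake and handling gave the surroundings in which FABP4 differed, in lists drawn up with earlier results of these data known. Of 12 other uptake genes 9 were tested and 0 were called, with a median log2 fold change of 0.10. Of these 9, 1 was higher in ArA without overlap, where 6.84% of all tested genes were. It was VLDLR, at 27.5 ± 2.11 TPM in ArA and 20.2 ± 1.32 TPM in control libraries (log2 fold change 0.43, limma adjusted p = 0.999). The caveolar coat gene CAVIN1 had 228 ± 7.89 TPM in ArA and 228 ± 27.7 TPM in control libraries, and GOT2, also described as a plasma membrane fatty acid binding protein, had 147 ± 2.66 TPM in ArA and 151 ± 16.8 TPM in control libraries (SD, n = 3 each). Of 12 acyl-CoA synthetase and acyl-CoA binding genes 11 were tested and 0 were called, with a median of 0.09, and 2 of the 11, ACSL1 and ACSL5, were higher in ArA without overlap. The acyl-CoA binding protein gene DBI had 309 ± 58.6 TPM in ArA and 295 ± 49.0 TPM in control libraries, and the synthetase genes ACSL5 and ACSL3 had 153 ± 3.6 and 59.7 ± 8.10 TPM in ArA and 125 ± 9.38 and 55.5 ± 16.8 TPM in control libraries. Of 6 retinoid carriers of the same barrel fold only CRABP2 was tested, at 24.8 ± 1.94 TPM in ArA and 25.2 ± 5.04 TPM in control libraries.

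The receptors that FABPs can supply were present. Of 13 nuclear receptors and partners 10 were tested and 0 were called, with a median of 0.05. PPARG, for which FABP4 is a known target and partner, had 48.69, 55.23 and 54.97 TPM in ArA replicates 1, 2 and 3, against 51.82, 48.51 and 58.30 TPM in control replicates 1, 2 and 3, with overlapping groups (log2 fold change 0.00, SE 0.10, limma adjusted p = 0.999). The oxysterol receptor gene NR1H2 had 69.8 ± 3.66 TPM in ArA and 68.9 ± 3.39 TPM in control libraries (SD, n = 3 each).

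Of 22 PPAR target genes other than FABP4, 16 were tested, and all 16 had positive log2 fold changes. Of the 16, 11 were higher in ArA without overlap, where 6.84% of all tested genes were. The median was 0.35, against 0.06 over all tested genes. This list too was drawn up with earlier results of these data known, so its counts are no independent support. CREB3L3, among the 11, met the filter only through its ArA values (1.53 ± 0.291 TPM, against 0.68 ± 0.149 TPM in control libraries). In this list ANGPTL4, a secreted inhibitor of lipoprotein lipase, and PLIN2, which coats lipid droplets, rose (log2 fold change 1.63 and 0.91, limma adjusted p = 0.00538 and 0.0331). Neither passed without ArA replicate 2 or without control replicate 1, where limma called 0 genes and 228 and 413 had an unadjusted p under 0.05. PLIN2 also did not pass without ArA replicate 1, ArA replicate 3 or control replicate 3, so of the 6 omissions of a single library it passed only without control replicate 2, and it did not pass under median-of-ratios scaling. Of the most abundant members of the list, the beta-oxidation genes ACADVL and HADHA had 289 ± 19.4 and 163 ± 1.62 TPM in ArA and 241 ± 14.0 and 149 ± 8.88 TPM in control libraries, and the glycerol channel gene AQP3 had 154 ± 12.4 TPM in ArA and 79.6 ± 6.66 TPM in control libraries (SD, n = 3 each).

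**Figure D5:**
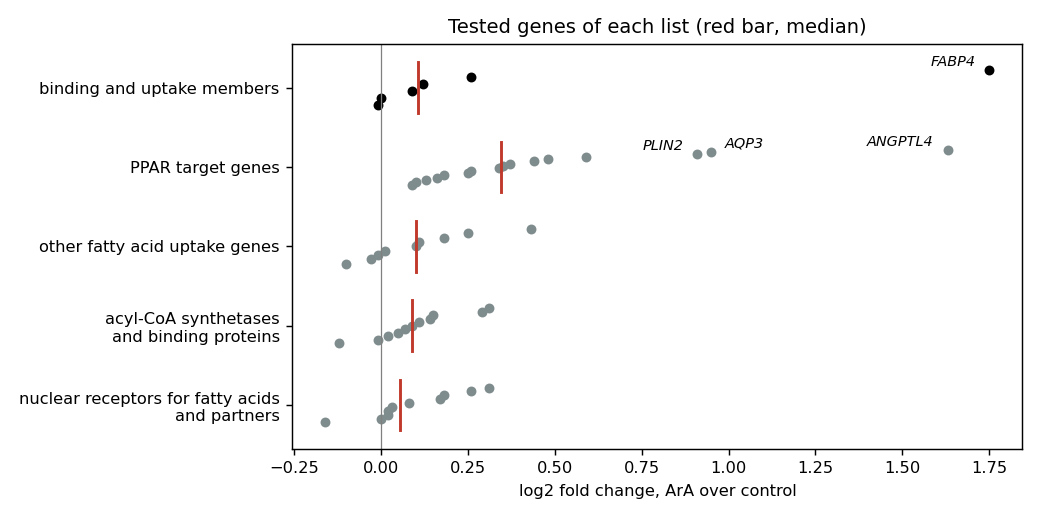
Log2 fold change of ArA over control (x axis) for each tested gene of the binding and uptake members and of 4 related lists (y axis), with 1 point per gene and the median of each list as a red bar. FABP4 and ANGPTL4 stand apart at 1.75 and 1.63, and the medians lie between 0.05 and 0.35.

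ANGPTL4 was also the gene whose profile over the 6 libraries lay nearest to that of FABP4. The root mean square difference of their centred log2(TPM + 1) values was 0.373, against a median of 0.890 over all tested genes and 0.922 for a flat profile. Other than FABP4 itself, 0 genes lay under 0.25. This measure takes in the difference between the groups, so a gene with a similar log2 fold change lies near by construction. ANGPTL4 had 65.76, 60.32 and 56.14 TPM in ArA replicates 1, 2 and 3, against 19.98, 19.45 and 17.45 TPM in control replicates 1, 2 and 3, and unlike FABP4 its highest ArA value was in replicate 1. The next nearest were S100P, which codes for a calcium-binding protein, at 0.434, TRIM7-AS2 at 0.439, the cochaperone gene DNAJB14 at 0.477 and KCNMB2-AS1 at 0.492. S100P had 8.73 ± 1.76 TPM in ArA and 3.9 ± 0.653 TPM in control libraries (SD, n = 3 each; limma adjusted p = 0.690).

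FABP4 and CD36 also mark adipocytes, endothelial cells and macrophages, whose other markers were read as follows. Of 8 adipocyte markers 1, LIPE, reached a mean of 1 TPM, ADIPOQ, LEP and CIDEA were listed at 0 in all libraries, and the summed level was 3.44 to 5.64 TPM in ArA and 2.29 to 4.18 TPM in control libraries. Of 7 endothelial markers 0 reached a mean of 1 TPM, and their sum was 1.06 to 1.27 TPM in ArA and 0.80 to 1.14 TPM in control libraries. Of 8 monocyte and macrophage markers only CD68, which tumour cells also express, reached it, while PTPRC did not exceed 0.15 TPM and AIF1 was listed at 0. With CD68 that list summed to 219 to 268 TPM in ArA and 186 to 223 TPM in control libraries. For the tissues where FABP3, FABP6 and SLC27A5 are known, 0 of 6 muscle, 1 of 6 ileal and 0 of 6 hepatocyte markers reached a mean of 1 TPM. Their part in the FABP4 difference was not tested beyond these levels.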

How the data were processed

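Values were read from a table in which the authors deposited TPM for 63241 genes in 6 libraries, 3 per group, and 50 lines that name no gene were left out. Per the submitters' processing notes the tools included HISAT2, StringTie and RSEM and the build was hg38; versions, roles, the annotation and the use of strand are not stated there. TPM are shares and keep no depth, so no counting interval can be given.

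Genes whose mean reached 1 TPM were fitted on log2(TPM + 1) with limma 3.58.1 in R 4.3.3 (eBayes with trend, group as the only term, 2-sided, Benjamini-Hochberg over 12999 genes, threshold 0.05). The fit was also run on simulated independent normal values with shuffled gene SDs and no GC trend, with an outcome not reported here. That simulation does not bear on whether FABP4 is called. GC content came from the longest GENCODE v29 transcript, had for 12637 genes (97.2%), and each library's deviation was fitted on it with a spline of 5 degrees of freedom and subtracted. Promoter windows came from RefSeq (GRCh38.p14), where 8 of the 10 members matched.

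The members and lists were chosen with earlier results of these data known. Named genes were the members, FABP pseudogenes, up to 3 called and the 3 most abundant genes of each list, and the 5 genes nearest to FABP4 in profile. Some genes that this rule names are not reported here. IMPA1, ZFAND1, CHMP4C, VIM, ERBB2, EPCAM, CDH1, VLDLR, CREB3L3 and the bile acid carriers were named after their values had been seen. Alternatives were other scalings, pseudocounts, filters, variance models, GC removal, the replicate block and leaving out libraries.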

Additional observations from a re-analysis of the deposited data

How the results depend on the processing

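FABP4 kept its direction under all 19 alternatives. It passed under quantile normalization (log2 fold change 1.71), with GC trends removed (1.73), with GC trends removed and the replicate number as a block (1.73, limma adjusted p = 0.0351) and, added after seeing the data, without ArA replicate 1 and control replicate 2 (1.79), so that 1 member was called in each of these 4 and 0 elsewhere. Leaving out single libraries gave 1.57 to 1.97, with no call. The number of genes called, 3 in the main analysis, was 5 with GC trends removed, 12 without both of those libraries and 0 to 7 without single libraries. Of the list genes, ANGPTL4 and PLIN2 were called in the main analysis, and 3 with GC trends removed, where AQP3 was added (limma adjusted p = 0.0353, against 0.0909). The number was 1, ANGPTL4, under median of ratios, without a filter, without trend and with GC trends removed in the block, and 0 to 2 without single libraries. With a mean of at least 5 TPM, 3 of 4 members were positive.

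Replicate numbers are not stated to pair libraries, so they were not taken to pair them. Deviations of same-numbered libraries, with GC trends left in, had correlations of -0.16, -0.28 and 0.11. With 3 libraries per group these cannot decide whether the numbers pair. The replicate block called 0 genes, with 232 at an unadjusted p under 0.05, and 0 list genes. The FABP4 to FABP5 log2 ratio differed by 1.02 to 1.89 over its 15 alternatives, with 1.55 to 1.75 without single libraries. The summed FABP level differed by 7.66 to 29.7 TPM, with 11.3 to 29.7 without single libraries and 7.66 with FABP5P7 added to the sum.

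Signs near 0 changed. SLC27A3 was at -0.04 under median of ratios and TPM rescaled without mitochondrially encoded genes, -0.02 under quantile normalization, 0.00 with a pseudocount of 5, -0.06 with GC trends removed, with or without the block, 0.22 without ArA replicate 1 and control replicate 2, and -0.16 to 0.15 without single libraries. SLC27A1 was at 0.01 without ArA replicate 1 and control replicate 2 and -0.07 to 0.06 without single libraries. SLC27A4 was at 0.00 to 0.16 without single libraries. The causes were not tested. Low members are limited by unknown depth.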
